A study of Mus musculus with 15 samples.

Results

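Guanylin (gene Guca2a), uroguanylin (Guca2b) and their receptor guanylyl cyclase C (Gucy2c) were followed in RNA from mouse colon. The 3 genes were taken by name as a ligand pair and its receptor, out of 55335 genes listed for each mouse, and all 3 were among the 14385 genes with enough RNA to test. Colon tissue came from 15 mice in 3 groups of 5. All mice had received dextran sulfate sodium (DSS), a polymer that injures the colon lining when given to mice. The DSS_ICB_Fp mice had DSS, immune checkpoint blockade and a gavage of the gut bacterium Faecalibacterium prausnitzii, the DSS_ICB mice had DSS and immune checkpoint blockade, and the DSS mice had DSS alone. Strain, sex, age, doses, days, the checkpoint antibodies, a control antibody and a control gavage are not given in the labels, and no group without DSS was analysed here. Mice are numbered 1 to 5 within a group, and a number matches nothing between groups.

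Guanylin and uroguanylin are made by epithelial cells of the gut as longer precursors and released into the lumen. Guanylin is known chiefly from the colon and uroguanylin chiefly from the proximal small intestine. Both bind guanylyl cyclase C on the luminal face of the epithelial cell, and the receptor then makes cyclic GMP. Cyclic GMP acts through the kinase encoded by Prkg2 to open the chloride channel CFTR and to restrain the sodium-hydrogen exchanger NHE3, so that salt and water stay in the lumen. The heat-stable enterotoxin of Escherichia coli acts on the same receptor.

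The ligand genes lie side by side. On GRCm38, Guca2a occupies chr4:119637704-119639471 on the plus strand and Guca2b chr4:119656607-119658954 on the minus strand, so that their 3′ ends face each other across 17135 bases. Gucy2c lies at chr6:136697284-136781765 on the minus strand. All 3 are annotated as protein coding. The active peptide of each ligand is the last stretch of its precursor, and its cysteines, which form a pair of disulfide bridges, are what the ligands share most. The final 16 codons of each coding sequence, stop codon included, are shown for that reason, read from the GENCODE M21 transcripts on GRCm38, with the cysteine codons (TGT or TGC) in capitals.
Guca2a: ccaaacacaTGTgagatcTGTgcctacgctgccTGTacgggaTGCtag
Guca2b: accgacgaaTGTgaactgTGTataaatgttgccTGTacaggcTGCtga
The Guca2a stretch is chr4:119639228-119639275 on the plus strand, and the Guca2b stretch is chr4:119656792-119656839 on the minus strand. Each lies in exon 3 of 3 of its gene. The 4 cysteine codons stand at the same codon positions in both genes. Of the 48 bases, 30 are identical (62.5%), and of the 16 codons 5 are identical, so the genes can be told apart by reads in this stretch. The full coding sequences have 116 codons in Guca2a and 106 codons in Guca2b, without the transcripts' untranslated ends.

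Sequence upstream of the ligands was read from RefSeq on GRCm38.p6, which held windows for 2 of the 3 genes. In the windows, 4 motifs of gut transcription factors or of the core promoter were sought on both strands. CDX factors were represented by TTTATG. A part of the site of HNF1 was represented by GTTAAT, and a part of the site of HNF4 by CAAAGT. The core promoter element bound by the TATA-binding protein was represented by TATAAA. The Guca2b window of 241 bases held 1 match, a GTTAAT whose first base lies 24 bases before the annotated gene start, where 6.29% of 32851 windows of the same length held this motif. The last 60 bases of that window, chr4:119658955-119659014 on the minus strand, are shown with the match in capitals.
Guca2b upstream: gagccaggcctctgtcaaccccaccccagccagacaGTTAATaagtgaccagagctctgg
The Guca2a window of 222 bases held 0 matches of the 4 motifs, which were found in 5.88% to 11.4% of windows of that length. A match is a run of letters, and binding was not measured.

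RNA levels are given in FPKM (fragments per kilobase of transcript and per unit of mapped reads), a unit that allows levels of different genes to be compared. The 15 libraries had between 13243 and 14336 genes at 1 FPKM or more. Estimated from the smallest steps between low values, depth was about 15200000 to 24800000 fragments a library. DSS_ICB 3 and DSS_ICB 5 stood apart. Their median rank correlations with the other libraries were 0.725 and 0.864, against 0.922 to 0.950 in the other 13. The summed FPKM of 10 pan-epithelial genes was 842 in DSS_ICB 3 and 3919 in DSS_ICB 5, and the lowest value among DSS mice was 5368. DSS_ICB 4 at 4440 and DSS_ICB_Fp 5 at 5329 also lay below that value. The summed FPKM of 11 neutrophil genes was 2148 in DSS_ICB 3 and 1393 in DSS_ICB 5, and the highest value among DSS mice was 250.1. DSS_ICB mice 1, 2 and 4 also lay above that value, at 411.6, 337.5 and 390.6. DSS_ICB 3 also had a smooth muscle sum of 15560 FPKM, against at most 4964 FPKM elsewhere, and 33.2% of its FPKM was mitochondrial, against 9.39% to 25.8% in the other 14. The homeobox genes of the distal gut were present in every library, at summed FPKM of 87.3 in DSS_ICB 3, 120.1 in DSS_ICB 5 and at least 175.6 in the others. A list of 11 small intestine genes summed to 62.3 to 144.6 FPKM in DSS_ICB_Fp mice. It summed to 3.24 to 59.5 FPKM in DSS_ICB mice and 60.1 to 92.5 FPKM in DSS mice. The part of these regional lists in the levels of the 3 genes was not tested.

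Guanylin was the most abundant of the 3 RNAs in every mouse. Guca2a was at 164.3, 195.5, 180.6, 260.9 and 266.6 FPKM in DSS_ICB_Fp mice 1 to 5. It was at 141.6, 230.6, 16.8, 91.5 and 29.9 FPKM in DSS_ICB mice 1 to 5, and at 153.2, 199.4, 200.2, 170.8 and 122.9 FPKM in DSS mice 1 to 5. DSS_ICB mice 3, 4 and 5 lay below every DSS mouse and below every DSS_ICB_Fp mouse, while DSS_ICB 2 lay above every DSS mouse. The group levels were 213.6 ± 47.2, 102.1 ± 87.6 and 169.3 ± 32.7 FPKM in the DSS_ICB_Fp, DSS_ICB and DSS mice (mean ± SD, n = 5 each).

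Uroguanylin RNA was present at a much lower level. Guca2b was at 8.90, 4.97, 6.49, 9.63 and 6.82 FPKM in DSS_ICB_Fp mice 1 to 5. It was at 6.56, 8.27, 0.486, 4.92 and 0.413 FPKM in DSS_ICB mice 1 to 5, and at 9.52, 9.45, 2.85, 6.23 and 7.83 FPKM in DSS mice 1 to 5. DSS_ICB mice 3 and 5 were the lowest of all 15 for uroguanylin, and the next lowest mouse was DSS 3. At the estimated depth, the lowest values rest on about 4 fragments in DSS_ICB 3 and 5 fragments in DSS_ICB 5, against 37 to 140 fragments in the other mice. The group levels were 7.36 ± 1.89, 4.13 ± 3.56 and 7.18 ± 2.77 FPKM in the DSS_ICB_Fp, DSS_ICB and DSS mice (mean ± SD, n = 5 each).

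The receptor lay between its ligands in level in every mouse. Gucy2c was at 52.4, 47.2, 54.6, 37.2 and 50.1 FPKM in DSS_ICB_Fp mice 1 to 5. It was at 51.5, 34.4, 0.875, 35.9 and 22.2 FPKM in DSS_ICB mice 1 to 5, and at 48.4, 42.0, 37.4, 45.2 and 51.6 FPKM in DSS mice 1 to 5. DSS_ICB mice 2 to 5 lay below every DSS mouse, though 34.4 and 35.9 FPKM were close to the lowest DSS value, and DSS_ICB 3 had almost none of this RNA. The group levels were 48.3 ± 6.76, 29.0 ± 18.9 and 44.9 ± 5.53 FPKM in the DSS_ICB_Fp, DSS_ICB and DSS mice (mean ± SD, n = 5 each).

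**Figure D1:**
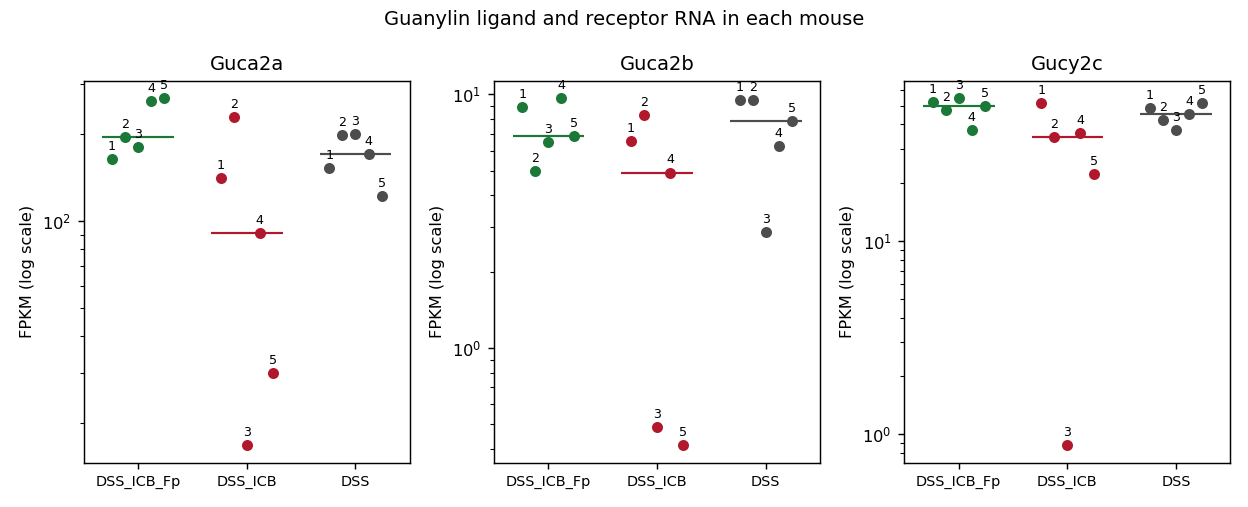
FPKM on a log scale of Guca2a, Guca2b and Gucy2c in each of the 15 mice, by group, with the mouse number at each point and a line at the group's median. The lowest points are DSS_ICB 3 for Guca2a and Gucy2c, at 16.8 and 0.875 FPKM, and DSS_ICB 5 for Guca2b, at 0.413 FPKM.

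The DSS_ICB mice also differed most among themselves. The highest DSS_ICB mouse exceeded the lowest 13.7-fold for Guca2a, 20.02-fold for Guca2b and 58.9-fold for Gucy2c. The same folds were 1.62, 1.94 and 1.47 among DSS_ICB_Fp mice and 1.63, 3.34 and 1.38 among DSS mice. In the lowest mice, ligands and receptor were not low in the same proportion. Relative to the median DSS mouse, DSS_ICB 3 had 9.84% of the Guca2a level, 6.21% of the Guca2b level and 1.93% of the Gucy2c level, beside 13.8% for Epcam, an adhesion protein of nearly all epithelial cells. DSS_ICB 5 had 17.5% of the Guca2a level and 5.28% of the Guca2b level but 49.1% of the Gucy2c level and 78.5% of the Epcam level.

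In DSS_ICB 5 the ligands stood lower than the pan-epithelial genes. The 10 pan-epithelial genes were at 53.9% to 104% of the median DSS mouse in that library, and the 12 goblet cell genes at 18.1% to 235%. Of 15 absorptive colonocyte genes, 3 stood lower than Guca2a: Selenbp1 at 8.78%, Slc26a3 at 9.27% and Cyp2c55 at 13.4%, while the median of that list was 106% and its highest value 419%. Among 13649 genes compared in this way, 0.967% stood lower than Guca2a and 0.205% lower than Guca2b in DSS_ICB 5. DSS_ICB 4, whose rank correlation with other libraries was 0.934, had 53.5% of the Guca2a level, 62.8% of the Guca2b level and 79.5% of the Gucy2c level. DSS_ICB 1 and DSS_ICB 2 ranged from 76.0% to 135% over the 3 genes. In bulk tissue, fewer cells of a type and less RNA per cell cannot be told apart.

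**Figure D2:**
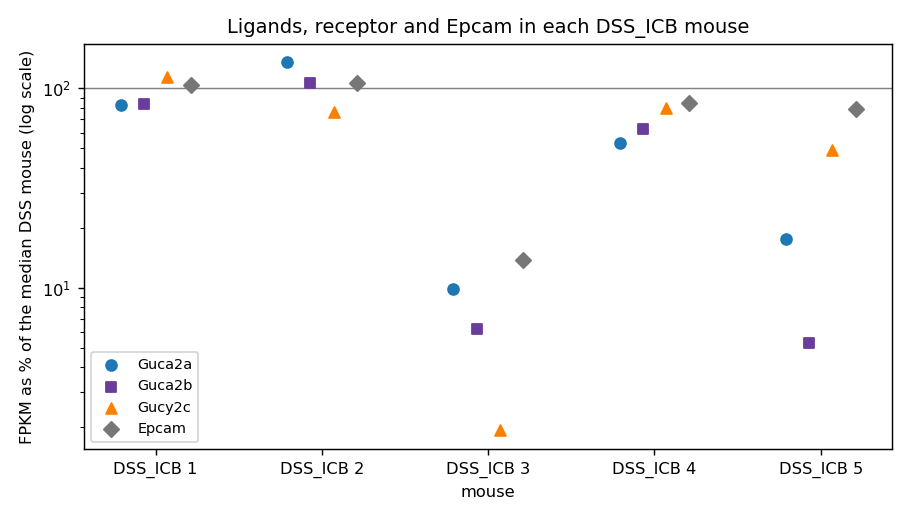
FPKM of Guca2a, Guca2b, Gucy2c and Epcam in each DSS_ICB mouse as a percentage of the median DSS mouse (line at 100%), on a log scale. In DSS_ICB 3 all 4 genes are at or under 13.8%, whereas in DSS_ICB 5 Epcam is at 78.5%, Gucy2c at 49.1% and the ligands at 17.5% and 5.28%.

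In DSS_ICB mice against DSS mice, all 3 genes had lower fitted levels, and 0 of the 3 passed the test. Changes were fitted on log2(FPKM + 1) with limma over all 15 libraries, and a gene was called at a Benjamini-Hochberg adjusted p under 0.05, which 0.0209% of tested genes reached in this comparison. The log2 change of Guca2a was -1.26 ± 0.53 (SE, adjusted p = 0.431). That of Guca2b was -0.99 ± 0.49 (adjusted p = 0.454), and that of Gucy2c was -1.21 ± 0.65 (adjusted p = 0.466). Without adjustment, limma p was 0.0322 for Guca2a, 0.0624 for Guca2b and 0.0823 for Gucy2c. Thus 1 of the 3 was under 0.05, as were 11.3% of tested genes. These p-values use an error shared by the 3 groups, though the DSS_ICB mice varied most. In a limma fit of the 2 compared groups only, unadjusted p was 0.0668, 0.109 and 0.142, all above 0.05. Few genes had more negative changes: 0.667% of tested genes for Guca2a, 1.58% for Guca2b and 0.786% for Gucy2c. Epithelial lists were lower too, with median log2 changes of -0.67 (10 pan-epithelial genes), -0.68 (15 absorptive colonocyte genes) and -0.60 (12 goblet cell genes). The median over all tested genes was 0.02. Without DSS_ICB 3 and DSS_ICB 5 the medians of these epithelial lists were -0.01, -0.29 and 0.15. For all 3 genes the groups overlapped, as they did for all but 1.54% of tested genes. The pseudocount of 1 FPKM draws in the change of Guca2b, the lowest of the 3, which was -1.47 with a pseudocount of 0.1.

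Lists of erythroid, endothelial and fibroblast markers had higher median levels in DSS_ICB than in DSS mice. In each list 0 genes passed the test, beside 0.0209% of all tested genes. Unadjusted limma p was under 0.05 for 5 of 5, 6 of 7 and 5 of 8 genes, beside 11.3% of all tested genes. The median log2 change in this comparison of 5 erythroid genes was 1.79, that of 7 endothelial genes 0.67 and that of 8 fibroblast genes 0.64, and without DSS_ICB 3 and DSS_ICB 5 these medians were 1.23, 0.33 and 0.35. The summed erythroid FPKM was 26.4 to 244.5 in DSS_ICB_Fp mice, 132.8 to 1151 in DSS_ICB mice and 56.4 to 351.5 in DSS mice. The endothelial sum was 28.5 to 46.1 FPKM in DSS_ICB_Fp mice, 46.8 to 112.6 FPKM in DSS_ICB mice and 24.9 to 55.95 FPKM in DSS mice. The fibroblast sum was 294.3 to 581.0 FPKM in DSS_ICB_Fp mice, 536.5 to 930.9 FPKM in DSS_ICB mice and 356.2 to 540.8 FPKM in DSS mice. Their part in the levels of the 3 genes was not tested.

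Without DSS_ICB 3, the log2 changes were -0.77 for Guca2a, -0.65 for Guca2b and -0.36 for Gucy2c, with adjusted p = 0.575, 0.641 and 0.574. Without DSS_ICB 3 and DSS_ICB 5 they were -0.21, -0.05 and -0.16. The 3 remaining DSS_ICB mice averaged 154.5 ± 70.4 FPKM for Guca2a, 6.58 ± 1.68 FPKM for Guca2b and 40.6 ± 9.47 FPKM for Gucy2c (mean ± SD, n = 3), against 169.3, 7.18 and 44.9 FPKM in the 5 DSS mice. Most of the fitted difference was thus carried by 2 of the 5 mice.

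In DSS_ICB_Fp mice against DSS_ICB mice, the fitted levels of all 3 genes were higher, and 0 of the 3 passed the test, as against 0.132% of all tested genes. The log2 change of Guca2a was 1.59 ± 0.53 (SE, limma adjusted p = 0.128). That of Guca2b was 1.08 ± 0.49 (adjusted p = 0.220), and that of Gucy2c was 1.31 ± 0.65 (adjusted p = 0.254). Without adjustment, limma p was 0.00942 for Guca2a, 0.0445 for Guca2b and 0.0623 for Gucy2c. Thus 2 of the 3 were under 0.05, as were 21.8% of tested genes. In a limma fit of the 2 compared groups only, unadjusted p was 0.0274, 0.069 and 0.116, so that only Guca2a was under 0.05. The 95% interval of the Guca2a change ran from 0.45 to 2.73. This comparison shares the DSS_ICB mice with the one before, so the same low libraries enter both. The groups overlapped for all 3 genes: 2 of 5 DSS_ICB_Fp mice lay above every DSS_ICB mouse for each of the 3 genes, and across all tested genes 3.41% had groups that did not overlap.

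The smallest adjusted p for any of the 3 genes under any alternative was 0.0553, for Guca2a in this comparison when DSS_ICB 2, the mouse with the highest DSS_ICB value, was left out (log2 change 2.02). Without DSS_ICB 3 the log2 changes were 1.09 for Guca2a, 0.73 for Guca2b and 0.46 for Gucy2c. Without DSS_ICB 3 and DSS_ICB 5 they were 0.54, 0.14 and 0.26, with adjusted p = 0.307, 0.845 and 0.421.

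In DSS_ICB_Fp mice against DSS mice, 0 of the 3 genes were called, as was no gene of the whole table (limma, 0% of tested genes). An unadjusted limma p under 0.05 was reached by 203 genes (1.41%), and none of the 3 was among them. This share is smaller than the threshold of 0.05 gives on average if no gene differs. The log2 change was 0.33 ± 0.53 for Guca2a, 0.09 ± 0.49 for Guca2b and 0.10 ± 0.65 for Gucy2c (SE, adjusted p = 1 for each). The 95% intervals were wide, from -0.81 to 1.47 for Guca2a, from -0.96 to 1.14 for Guca2b and from -1.29 to 1.48 for Gucy2c. Without DSS_ICB 3 and DSS_ICB 5, which enter the error shared by all groups, the Gucy2c interval was -0.20 to 0.40. In a fit of these 2 groups only, the interval was -0.06 to 0.72 for Guca2a and -0.49 to 0.67 for Guca2b. For Gucy2c that fit gave -0.18 to 0.38. Among all tested genes, 0.389% had groups that did not overlap in this comparison.

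**Figure D3:**
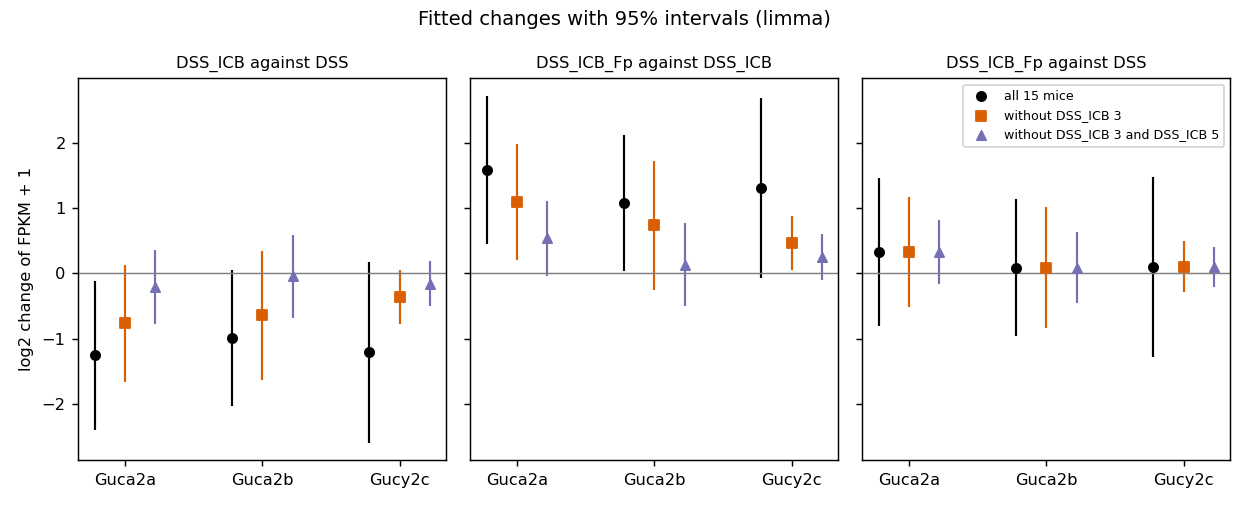
Fitted log2 changes of FPKM + 1 with 95% intervals (limma) for Guca2a, Guca2b and Gucy2c in 3 comparisons, with all 15 mice (circles), without DSS_ICB 3 (squares) and without DSS_ICB 3 and DSS_ICB 5 (triangles). The Gucy2c change of DSS_ICB against DSS mice shrinks in size to -0.36 without DSS_ICB 3, while the Guca2a change is -0.77.

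The balance of the ligands varied widely from mouse to mouse. Guca2a had 18.5 to 39.4 times the FPKM of Guca2b in DSS_ICB_Fp mice, 18.6 to 72.5 times in DSS_ICB mice and 15.7 to 70.2 times in DSS mice. The 2 highest ratios were in DSS_ICB 5, which was low in both ligands, and DSS 3, which was low in Guca2b alone. The mean of log2((Guca2b + 1)/(Guca2a + 1)) was -4.68 ± 0.42 in DSS_ICB_Fp mice, -4.18 ± 0.42 in DSS_ICB mice and -4.44 ± 0.77 in DSS mice (SD, n = 5 each). Without a pseudocount the means were -4.87 ± 0.45 in DSS_ICB_Fp mice, -4.95 ± 0.77 in DSS_ICB mice and -4.66 ± 0.89 in DSS mice (SD, n = 5 each), so that DSS_ICB mice stood lowest and not highest, and the direction of the DSS_ICB comparisons turned. No pair of groups differed beyond the spread in exact two-sided permutation tests (pseudocount 1, p = 0.103 for DSS_ICB_Fp against DSS_ICB mice, 0.579 for DSS_ICB against DSS mice and 0.556 for DSS_ICB_Fp against DSS mice). The ratio of Guca2a to Gucy2c FPKM was lowest in DSS_ICB 5, at 1.35, and highest in DSS_ICB 3, at 19.2, and ran from 2.38 to 7.01 in the other 13 mice. Gucy2c exceeded Guca2b in every mouse, by the narrowest margin in DSS_ICB 3, at 0.875 against 0.486 FPKM.

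Since the libraries held unequal amounts of epithelial RNA, each gene was also set against the mean log2 level of the 10 pan-epithelial genes in the same library. By this measure Guca2a stood at -1.02 ± 0.34 in DSS_ICB_Fp mice, -1.87 ± 0.85 in DSS_ICB mice and -1.27 ± 0.37 in DSS mice (log2 units, SD, n = 5 each). The difference of 0.85 between DSS_ICB_Fp and DSS_ICB mice had p = 0.0397 in an exact two-sided permutation test and 0.381 after adjustment over the 12 tests of this kind. The smallest p that 5 mice against 5 allow is 0.00794. Without DSS_ICB 5 that difference was 0.50 (exact permutation p = 0.0794), and without DSS_ICB 3 and DSS_ICB 5 it was 0.42 (p = 0.179). Between DSS_ICB and DSS mice the difference in relative Guca2a was -0.60, -0.25 without DSS_ICB 5 and -0.17 without both. Gucy2c differed by 0.57 between DSS_ICB_Fp and DSS_ICB mice and by -0.55 between DSS_ICB and DSS mice, and these differences were 0.25 and -0.22 without DSS_ICB 3. Relative Guca2b levels were -5.70 ± 0.25, -6.05 ± 0.95 and -5.72 ± 0.59 in the DSS_ICB_Fp, DSS_ICB and DSS mice, and relative Gucy2c levels were -3.13 ± 0.32, -3.70 ± 0.79 and -3.15 ± 0.12. The difference in relative Guca2b between DSS_ICB and DSS mice, -0.33, turned to 0.09 without DSS_ICB 5. None of the 12 tests had an adjusted p below 0.381.

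The same measure separated the 2 mice that stood apart. In DSS_ICB 3, Guca2a at -1.76 lay within the range of DSS_ICB mice 1, 2 and 4 (-1.81 to -0.97), whereas Gucy2c at -5.01 lay below all 14 others. In DSS_ICB 5, Guca2a at -3.27 and Guca2b at -7.72 were the lowest of all 15 mice, whereas Gucy2c at -3.69 was level with DSS_ICB 2 at -3.68 and DSS_ICB_Fp 4 at -3.69. The place of Guca2b in DSS_ICB 3 turns on the pseudocount. With 1 FPKM added it was at -5.34, above DSS_ICB mice 1, 2 and 4 at -5.79 to -5.61. With none added, it was at 0.586 FPKM per 100 FPKM of Epcam in DSS_ICB 3, below DSS_ICB mice 1, 2 and 4 at 1.05, 1.30 and 0.968.

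**Figure D4:**
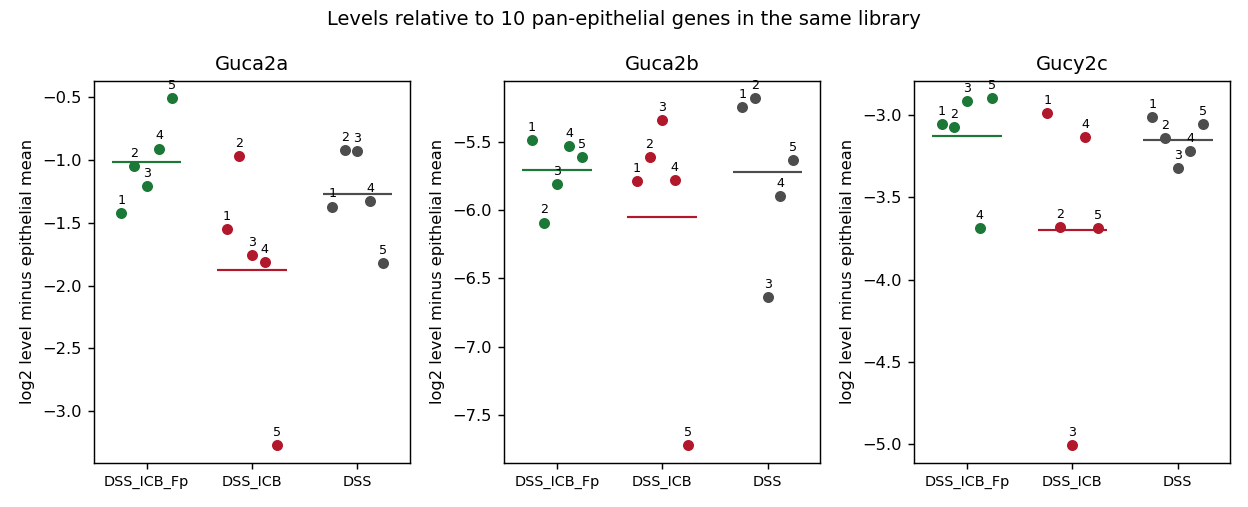
Level of each gene on the log2(FPKM + 1) scale minus the mean of 10 pan-epithelial genes in the same library, for each mouse, with the mouse number at each point and a line at the group's mean. DSS_ICB 5 is lowest for Guca2a (-3.27) and Guca2b (-7.72), and DSS_ICB 3 is lowest for Gucy2c (-5.01).

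Over all 15 mice the 3 RNAs varied together by Pearson's r, but this rested on the 2 mice that stood apart. The permutations, here and for the marker lists, ran over all mice without regard to group, so differences between groups enter r and rho. For Guca2a and Guca2b, r was 0.86 (permutation p = 0.00289, adjusted over 9 relations 0.00397) and Spearman's rho was 0.47 (p = 0.0786, adjusted 0.176). For Guca2a and Gucy2c, r was 0.81 (permutation p = 0.00309, adjusted 0.00397) and rho 0.14 (p = 0.62, adjusted 0.62). For Guca2b and Gucy2c, r was 0.74 (permutation p = 0.00369, adjusted 0.00415) and rho 0.39 (p = 0.156, adjusted 0.201). Without DSS_ICB 3 and DSS_ICB 5, r over 13 mice was 0.17, -0.13 and 0.21 for these pairs, with permutation p = 0.581, 0.664 and 0.505.

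The relations of the 3 genes to epithelial and neutrophil genes were weaker without the same mice. With the mean log2 level of the pan-epithelial genes, r was 0.83 for Guca2a, 0.74 for Guca2b and 0.97 for Gucy2c (permutation p = 0.00029, 0.00127 and 0.00205, adjusted 0.00186, 0.00286 and 0.00369), and rho was 0.43, 0.61 and 0.42 (p = 0.109, 0.017 and 0.117, adjusted 0.176, 0.066 and 0.176). With the 11 neutrophil genes, r was -0.85, -0.73 and -0.73 (permutation p = 0.00062, 0.00667 and 0.00048, adjusted 0.00186, 0.00667 and 0.00186), and rho was -0.59, -0.24 and -0.64 (p = 0.022, 0.384 and 0.0119, adjusted 0.066, 0.432 and 0.066). Over 13 mice, r with the epithelial genes was 0.46 for Guca2a, 0.49 for Guca2b and 0.13 for Gucy2c. With the neutrophil genes it was -0.42, 0.09 and -0.40, and none of the 6 had an adjusted permutation p below 0.388. Leaving out the farthest mice narrows the range, so these values cannot decide whether a weaker relation remains. The summed neutrophil FPKM was 111.7 to 222.0 in DSS_ICB_Fp mice, 337.5 to 2148 in DSS_ICB mice and 119.4 to 250.1 in DSS mice. Ly6g had the highest mean of the 11 genes, at 175.6 FPKM over the 15 mice, so over these mice it weighs most in the sums. In DSS_ICB_Fp 5, 4 of the 11 were at 0. The mean log2 level, in which the 11 genes weigh alike, was 0.87 to 2.11 in DSS_ICB_Fp mice. It was 3.02 to 5.55 in DSS_ICB mice and 1.82 to 2.41 in DSS mice. In DSS_ICB_Fp against DSS_ICB mice, 5 of 10 tested neutrophil genes were called lower, where 0.132% of all tested genes were called. Their median log2 change was -2.48, and -1.55 without DSS_ICB 3 and DSS_ICB 5. The part of neutrophil genes in the levels of the 3 genes was not tested.

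Downstream of the receptor, a list of 13 cyclic GMP effectors and transport targets had 9 members with enough RNA to test. Of these 9, 0 were called in any of the 3 comparisons. The shares of all tested genes called were 0.0209% in DSS_ICB against DSS, 0.132% in DSS_ICB_Fp against DSS_ICB and 0% in DSS_ICB_Fp against DSS mice. Beside 11.3%, 21.8% and 1.41% of all tested genes, 2, 6 and 0 of these 9 had an unadjusted limma p under 0.05. The median log2 change over these 9 genes was -0.06 in DSS_ICB against DSS mice, -0.04 in DSS_ICB_Fp against DSS_ICB mice and 0.09 in DSS_ICB_Fp against DSS mice, beside 0.02, -0.04 and -0.01 over all tested genes. The median in DSS_ICB_Fp against DSS_ICB mice was 0.05 without DSS_ICB 3 and 0.25 without DSS_ICB 3 and DSS_ICB 5, so that its sign turned. The kinase gene Prkg2 was not among them, at no more than 0.491 FPKM in any mouse, and the NHE3 gene Slc9a3 reached 0.550 FPKM at most. Both are named here after their values were seen, as is the channel gene Cftr, because background on the pathway turns on them.

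Cftr averaged 11.9 ± 3.43 FPKM in DSS_ICB_Fp mice, 6.35 ± 3.39 FPKM in DSS_ICB mice and 10.5 ± 2.09 FPKM in DSS mice (SD, n = 5 each). Its log2 change was -0.86 ± 0.40 in DSS_ICB against DSS mice and 1.0 ± 0.40 in DSS_ICB_Fp against DSS_ICB mice (SE, limma adjusted p = 0.436 and 0.169). DSS_ICB 3 had 0.686 FPKM of Cftr, and the other DSS_ICB mice 5.83 to 9.17 FPKM. Without DSS_ICB 3 the changes were -0.39 and 0.53, and without DSS_ICB 3 and DSS_ICB 5 they were -0.27 and 0.41.

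Slc26a3, which encodes the chloride-bicarbonate exchanger of the colon surface, had the widest spread of the named effector and transport genes. It was at 69.0, 92.4, 86.2, 25.9 and 183.7 FPKM in DSS_ICB_Fp mice 1 to 5, at 31.6, 22.6, 0.296, 26.4 and 4.84 FPKM in DSS_ICB mice 1 to 5, and at 39.4, 59.3, 40.3, 52.3 and 69.5 FPKM in DSS mice 1 to 5. All DSS_ICB mice lay below all DSS mice, a separation that 1.54% of tested genes showed in either direction, and the DSS_ICB_Fp mice overlapped the DSS_ICB mice only through DSS_ICB_Fp 4. The log2 change was -2.24 ± 0.74 in DSS_ICB against DSS mice (SE, limma adjusted p = 0.418) and 2.82 ± 0.74 in DSS_ICB_Fp against DSS_ICB mice (adjusted p = 0.0862). Those changes were -0.91 and 1.49 without DSS_ICB 3 and DSS_ICB 5 (adjusted p = 0.625 and 0.191). In DSS_ICB_Fp against DSS_ICB mice, Slc26a3 alone of the 9 genes was called with sample quality weights, without DSS_ICB 1 and without DSS_ICB_Fp 4, where 6.7%, 4.16% and 3.12% of all tested genes were called. DSS_ICB 1 had the highest Slc26a3 of its group and DSS_ICB_Fp 4 the lowest of its own. Leaving out either thus widens the difference.

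The other named genes of that list had smaller changes than Slc26a3, and the changes of Slc9a2 were near those of Cftr. Slc9a2, a sodium-hydrogen exchanger gene, had a log2 change of -0.83 ± 0.42 in DSS_ICB against DSS mice and 0.96 ± 0.42 in DSS_ICB_Fp against DSS_ICB mice (SE, limma adjusted p = 0.455 and 0.199). Slc9a3r1, which encodes the scaffold NHERF1, had changes of -0.38 ± 0.24 and 0.62 ± 0.24 (adjusted p = 0.514 and 0.160). Vasp, an actin regulator that cyclic GMP kinases phosphorylate, had changes of 0.14 ± 0.20 and -0.05 ± 0.20 (adjusted p = 0.783 and 0.910). With DSS_ICB 3 and DSS_ICB 5 left out, these changes were -0.31 and 0.44 for Slc9a2, -0.09 and 0.33 for Slc9a3r1, and 0.24 and -0.14 for Vasp.

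Of 11 genes named as phosphodiesterases, not all of which break down cyclic GMP, 8 had enough RNA to test. In the 3 comparisons, in the order given above, 0 of the 8 were called, beside 0.0209%, 0.132% and 0% of all tested genes. Beside 11.3%, 21.8% and 1.41% of all tested genes, 1, 2 and 0 of these 8 had an unadjusted limma p under 0.05. Their median log2 change was 0.20 in DSS_ICB against DSS mice, -0.26 in DSS_ICB_Fp against DSS_ICB mice and -0.06 in DSS_ICB_Fp against DSS mice, and without DSS_ICB 3 and DSS_ICB 5 the first was -0.04 and the second 0.02, so that both turned in sign. Pde9a was the most abundant, at 45.9 FPKM over the 15 mice, and had log2 changes of 0.10 ± 0.32 in DSS_ICB against DSS mice and -0.34 ± 0.32 in DSS_ICB_Fp against DSS_ICB mice (SE, limma adjusted p = 0.912 and 0.557). Those changes were 0.26 and -0.50 without DSS_ICB 3 and DSS_ICB 5. In DSS_ICB 5 it was at 78.02 FPKM, level with the highest mouse, DSS_ICB 1, while the ligands in that library were at their lowest relative to epithelium. Pde5a, also a gene of smooth muscle, was at 45.5 FPKM in DSS_ICB 3, the library with the highest smooth muscle sum, and at 14.4 to 22.4 FPKM in the other 14 mice. Pde6d and Pde3a had changes of 0.25 ± 0.15 and -0.22 ± 0.10 in DSS_ICB against DSS mice (adjusted p = 0.492 and 0.448).

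Of 15 other guanylyl cyclase and natriuretic peptide genes, 4 had enough RNA to test. In the 3 comparisons, in the order given above, 0 of the 4 were called, beside 0.0209%, 0.132% and 0% of all tested genes. Beside 11.3%, 21.8% and 1.41% of all tested genes, 0 of these 4 had an unadjusted limma p under 0.05. The 4 were Gucy1a1 and Gucy1b1, the subunits of the nitric oxide receptor, and Npr1 and Npr2, the natriuretic peptide receptors that make cyclic GMP. Averaged over all 15 mice they reached 1.83 to 5.78 FPKM, against 40.7 FPKM for Gucy2c. Their median log2 change was 0.32 in DSS_ICB against DSS mice, the opposite sign to Gucy2c, and 0.02 without DSS_ICB 3 and DSS_ICB 5. In DSS_ICB_Fp against DSS_ICB mice it was -0.41, and -0.03 without them. Npr2 was at 12.3 FPKM in DSS_ICB 3 and at 1.78 to 4.93 FPKM in the other 14 mice. Gucy2f was listed at 0 in every mouse, and the membrane cyclase genes Gucy2d and Gucy2e did not exceed 0.0398 FPKM.

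Of 13 intestinal transcription factors, 12 had enough RNA to test. In the 3 comparisons, in the order given above, 0 of the 12 were called, beside 0.0209%, 0.132% and 0% of all tested genes. Beside 11.3%, 21.8% and 1.41% of all tested genes, 2, 8 and 1 of these 12 had an unadjusted limma p under 0.05. Their median log2 change was -0.54 in DSS_ICB against DSS mice and 0.75 in DSS_ICB_Fp against DSS_ICB mice. Without DSS_ICB 3 and DSS_ICB 5 these medians were 0.02 and 0.15. Hnf4a, a nuclear receptor of the gut epithelium, had a log2 change of -0.88 ± 0.50 in DSS_ICB against DSS mice, and Klf4, a factor of differentiated epithelial cells, one of -0.97 ± 0.46 (SE, limma adjusted p = 0.482 and 0.450). Elf3 and the homeobox gene Cdx1 had changes of -0.58 ± 0.41 and -0.49 ± 0.46 (adjusted p = 0.558 and 0.659). With DSS_ICB 3 and DSS_ICB 5 left out, the changes were -0.11 for Hnf4a, -0.24 for Klf4, 0.01 for Elf3 and 0.33 for Cdx1. Hnf4a was at 9.27 FPKM in DSS_ICB 3 and 72.4 FPKM in DSS_ICB 5, against 87.6 to 142.0 FPKM in DSS mice. Hnf4g, named after its values were seen, had changes of -1.53 ± 0.47 in DSS_ICB against DSS mice and 1.54 ± 0.47 in DSS_ICB_Fp against DSS_ICB mice (adjusted p = 0.418 and 0.108). They were -0.81 and 0.81 without DSS_ICB 3 and DSS_ICB 5 (adjusted p = 0.625 and 0.247). In the second comparison Hnf4g was called with sample quality weights, together with Isx, and without DSS_ICB 1, settings that called 6.7% and 4.16% of all tested genes. DSS_ICB 1 had the highest Hnf4g of the DSS_ICB mice, at 9.21 FPKM, so leaving it out widens the difference.

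**Figure D5:**
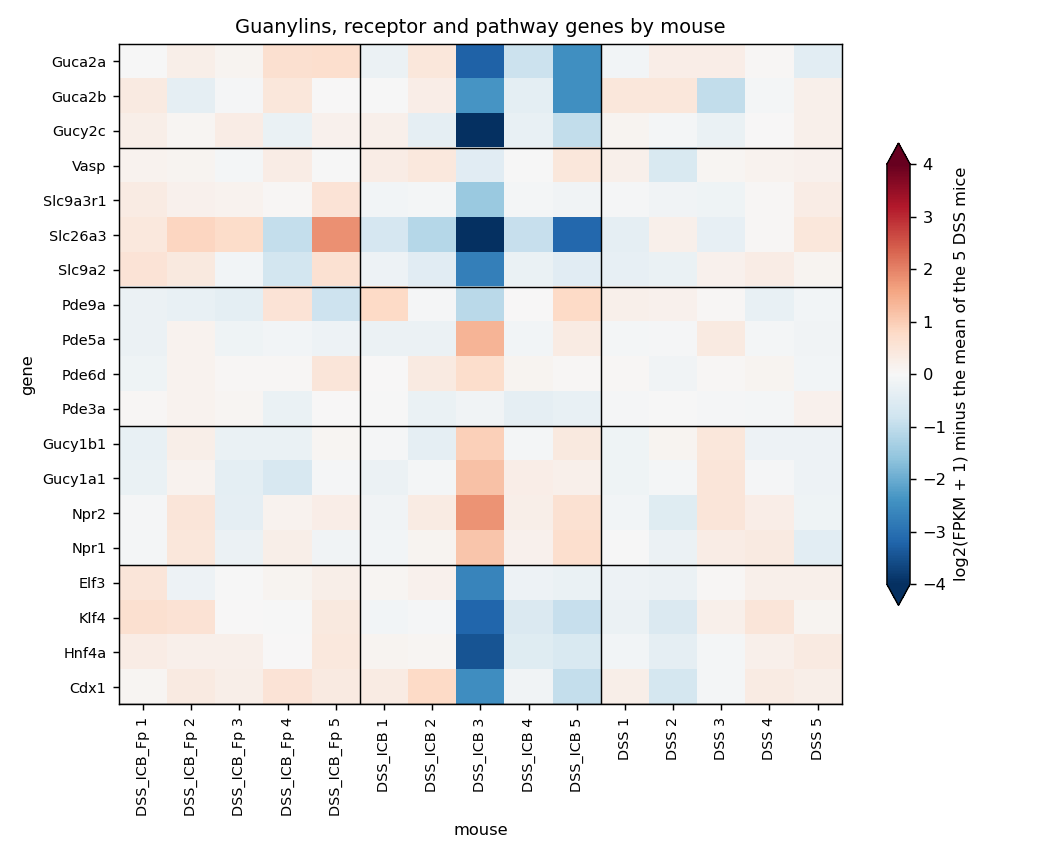
Each cell gives log2(FPKM + 1) in 1 mouse minus the mean of the 5 DSS mice, for Guca2a, Guca2b and Gucy2c (top block) and, below them, the named effector and transport genes, phosphodiesterases, other cyclase genes and transcription factors. The DSS_ICB 3 column is low for the 3 genes and the transcription factors and high for Npr2, and the DSS_ICB 5 column is low for Guca2a, Guca2b and Slc26a3.

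The genes whose levels ordered the 15 mice most like each member were ranked by Spearman's rho over 12300 tested genes with names. For Guca2a they were Otub1 (rho 0.875), Ethe1 (0.832), Fahd2a (0.825), Marc2 (0.825) and Muc3 (0.811), the last a membrane mucin gene. For Guca2b they were E2f5 (0.868), Mpi (0.854), Lgals3 (0.850), Acy1 (0.836) and Krt19 (0.836), the last an epithelial keratin gene and 1 of the 10 pan-epithelial genes. For Gucy2c they were Mcf2l (0.982), Galnt4 (0.979), Ptprk (0.957), Acly (0.954) and Gk5 (0.950). The likeness was closer for the receptor than for either ligand, and without DSS_ICB 3 the values were 0.938 to 0.978 for the receptor, 0.767 to 0.851 for Guca2a and 0.802 to 0.842 for Guca2b. No gene stood in the first 5 for more than 1 member. All points share the libraries and their epithelial content, and these are the top ranks of many genes, so they are descriptions.

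Genes next to the members were read too, a choice made after the data were seen. Within 200 kb of the ligands, Foxj3 was the only other gene with enough RNA to test. Its log2 change was 0.04 ± 0.11 in DSS_ICB against DSS mice, against -1.26 ± 0.53 for Guca2a and -0.99 ± 0.49 for Guca2b (SE, limma adjusted p = 0.892, 0.431 and 0.454). Within 200 kb of Gucy2c, 6 other genes were tested. Plbd1 had a log2 change of -0.55 ± 0.35 in DSS_ICB against DSS mice, while Atf7ip, H2afj and Wbp11 lay between -0.07 and 0.05, Arhgdib was at 0.47 ± 0.40 and Mgp, the matrix Gla protein gene, at 1.31 ± 0.46. Plbd1 was at -0.15, Arhgdib at 0.08 and Mgp at 0.66 without DSS_ICB 3 and DSS_ICB 5. None of these was called, beside 0.0209% of all tested genes in this comparison.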

How the data were processed

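Colon RNA of 15 mice was sequenced by the authors, 1 library a mouse. Per the submitters' processing notes, FastQC, STAR 2.5 (to mm10), Cuffnorm and DESeq were used, and the authors deposited FPKM values, so depth is known only as an estimate from the steps between low values of genes over 1 kb. Whether these FPKM carry a further scaling between libraries, and whether counting used strand, is not given in the sources used here. Ensembl IDs were named with GENCODE M21 on GRCm38 (55154 of 55335 matched). No 2 libraries held identical values, and nothing says whether mice shared a cage or a batch.

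Genes with at least 1 FPKM in at least 5 libraries were kept (14385). limma 3.58.1 in R 4.3.3 (trend, robust) was fitted to log2(FPKM + 1) of all 15 libraries with 1 mean per group, so fold changes of low genes are understated, and p-values were adjusted by Benjamini-Hochberg over all tested genes, with 0.05 as the threshold. Ratios and levels relative to the pan-epithelial genes were compared by exact two-sided permutation tests over mice (252 arrangements), adjusted over 12 tests, and relations across mice by 100000 permutations in scipy 1.17.1, adjusted over 9. The limma step was tested on simulated data. Noise was drawn for each gene on its own with the same spread in each group. The simulation thus held no libraries that stood apart and no wider spread in DSS_ICB mice. Alternatives were other pseudocounts, scalings, filters, a fit of 2 groups only, sample quality weights, and libraries left out.

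The 3 genes, the gene lists and the marker lists were chosen with earlier results of these data known. From each pathway list, genes called in any comparison and otherwise the 4 with the highest mean FPKM are named, and for each member the 5 most alike genes, without predicted models and pseudogenes.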

Additional observations from a re-analysis of the deposited data

Results flagged for a closer look

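In 30 sets of 5 mice (the FPKM, the log2 levels, the ligand ratio and the levels relative to epithelial genes, in each group), 3 held a mouse whose gap to the nearest other mouse was more than 0.71 of the group's whole range. Chance alone gives this in about 1 in 20 sets, and the sets overlap, since the same 15 mice enter all of them.

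Among DSS_ICB mice, DSS_ICB 3 had a Gucy2c level of 0.91 on the log2(FPKM + 1) scale, and the other 4 lay between 4.54 and 5.71. The gap made up 0.755 of the range.

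Among DSS_ICB mice, DSS_ICB 5 had a Guca2b level relative to epithelial genes of -7.72 (log2 units), and the other 4 lay between -5.79 and -5.34. The gap made up 0.813 of the range, and the Guca2b value rests on about 5 fragments.

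Among DSS_ICB_Fp mice, DSS_ICB_Fp 4 had a Gucy2c level relative to epithelial genes of -3.69, and the other 4 lay between -3.07 and -2.90. The gap made up 0.778 of the range. This mouse had the lowest Gucy2c of its group, at 37.2 FPKM, beside the second highest Guca2a, at 260.9 FPKM, and the lowest Slc26a3 of its group, at 25.9 FPKM.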

How the results depend on the processing

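None of the 3 genes passed the test in any comparison under any of the 25 limma alternatives, and of 225 such values 223 kept their direction. The 2 that did not were Guca2b in DSS_ICB_Fp against DSS mice, whose log2 change with a mouse left out ran from -0.16 to 0.20. Many of the 225 could not turn. Leaving out a mouse of the group outside a comparison, another filter or a fit of 2 groups leaves the fitted change as it was. Among the permutation tests, 146 values kept their direction and 15 did not. For Guca2b relative to epithelial genes, a pseudocount of 10 gave 0.31 in DSS_ICB against DSS, -0.36 in DSS_ICB_Fp against DSS_ICB and -0.048 in DSS_ICB_Fp against DSS mice, and leaving out a mouse gave -0.56 to 0.088, -0.074 to 0.52 and -0.22 to 0.15. The ligand ratio in DSS_ICB against DSS mice was -0.19 with a pseudocount of 0.1 and -0.047 to 0.43 with a mouse left out. Gucy2c relative to epithelial genes in DSS_ICB_Fp against DSS mice ran from -0.033 to 0.16 with a mouse left out. The cause of these turns was not tested. The difference in relative Guca2a between DSS_ICB_Fp and DSS_ICB mice, 0.85, ran from 0.50 to 1.08 with a mouse left out.

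Over all genes, 3 were called in DSS_ICB against DSS mice, but 0 with a pseudocount of 0.1, 1 each with a pseudocount of 10, no filter, a filter at 5 FPKM or a fit of 2 groups, and 0 to 7 with a mouse left out, the 7 without DSS_ICB 4 and 0 or 1 without any of 12 others. In DSS_ICB_Fp against DSS_ICB mice 19 were called, but 42 with a pseudocount of 0.1, 5 with 10, 7 with no filter, 11 with a filter at 5 FPKM, 0 in a fit of 2 groups, 964 with sample quality weights and 5 to 598 with a mouse left out. That count was 598 without DSS_ICB 1, 449 without DSS_ICB_Fp 4, 153 without DSS_ICB 2, 75 without DSS_ICB 4, 11 without DSS 2, 9 without DSS_ICB 3, 8 without DSS_ICB 5, 6 without DSS_ICB_Fp 1 and 5 without DSS_ICB_Fp 2, 3 or 5. In that comparison 1 effector gene and 2 transcription factors were called with quality weights, and 0 to 1 of each list with a mouse left out. Scalings moved the median of all genes by at most 0.02 (log2).

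Without DSS_ICB 3 and DSS_ICB 5, Pearson's r was 0.17 for Guca2a and Guca2b, -0.13 for Guca2a and Gucy2c and 0.21 for Guca2b and Gucy2c. It was 0.46, 0.49 and 0.13 for epithelial genes with Guca2a, Guca2b and Gucy2c, and -0.42, 0.087 and -0.40 for neutrophil genes. No paired analysis was possible because the labels carry no number shared between groups. Depth limits Guca2b most, at about 4 and 5 fragments in its lowest libraries.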
